A study of Mus musculus with 96 samples.

Results

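The 4 RNA-seq libraries described here come from a mouse embryonic stem cell (ESC) line called rTRS, whose genotype is labelled as a doxycycline (DOX)-induced integration of Rybp and Stat3. They were taken as the DOX and NTC columns of a single count table, and are 4 of the 96 samples of the series, with 2 libraries labelled DOX and 2 labelled NTC. The NTC libraries are given as the control treatment, so they carry the same integration and differ from the DOX libraries in the agent. All were grown in ESC medium with 15% fetal bovine serum and 1000 U/mL recombinant LIF. The dose and duration of DOX, the clone, the promoter and tag of the construct, and the origin of the replicates are not given in the sources used here, and p-values therefore measure the spread between these libraries, which may be technical. No rTRS-like line without the integration was given DOX, so an effect of the agent and an effect of the induced factors cannot be told apart. The column of the second DOX library carries another prefix than the other 3, which the sources do not explain, and the counts of the gene lists without it are given beside the lists or together after them.

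RYBP is a subunit of non-canonical Polycomb repressive complex 1 (PRC1), the complexes in which RING1A or RING1B, with a PCGF protein, ubiquitinates histone H2A. STAT3 is the transcription factor that LIF activates in mouse ESCs: LIF binds LIFR and gp130, JAK kinases phosphorylate STAT3, and STAT3 then raises Socs3, whose product inhibits JAK, and naive pluripotency genes such as Klf4. Loss of this input is known to let mouse ESCs leave the naive state for formative and primed states.

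The genes named in the genotype were examined first. Rybp (chr6:100178560-100237435, minus strand, mm9) stood at 113 and 110.5 CPM (counts scaled to library size) in the NTC libraries and at 102 and 99.8 CPM in the libraries labelled DOX. Both DOX values lay under both NTC values, and the difference did not pass the test (log2 fold change -0.15, SE 0.065, adjusted p = 0.076). With the replicate number as a block it passed (adjusted p = 0.0058), though the labels do not say that equal numbers mark a shared batch. Stat3 (chr11:100746412-100800854, minus strand) stood at 159 and 172 CPM against 191 and 188.5 CPM, a rise of 0.20 on the log2 scale (SE 0.064, adjusted p = 0.026). That call was lost without NTC library 1 (adjusted p = 0.26), DOX library 1 (adjusted p = 0.096) or DOX library 2 (adjusted p = 0.055). The counts thus went against the label for Rybp and showed at most a small rise for Stat3, and whether reads of the construct would be counted on these genes is not known. The DOX samples are therefore called the libraries labelled DOX, and every direction below rests on those labels.

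The 2 groups were nonetheless far apart. Each library held 50312058 to 53779354 counts on genes, the rank correlation over genes was 0.995 within either group and 0.969 to 0.971 between them, and the common biological coefficient of variation was 0.0837. Of 16291 genes tested with edgeR, 3739 (23.0%) were higher and 3331 (20.4%) lower in the libraries labelled DOX at an adjusted p under 0.05. With a log2 fold change beyond 1 as well, 1255 genes (7.70%) were higher and 698 (4.28%) lower. The groups did not overlap for 71.3% of the genes tested, so a gap between groups of 2 is by itself common here. The levels of the ESC markers (Pou5f1, Sox2, Nanog, Zfp42, Esrrb, Dppa5a, Tdgf1, Utf1 and Fgf4) summed to 6612 and 6299 CPM in NTC and to 4070 and 3826 CPM in the libraries labelled DOX. Of 8 defining feeder fibroblast markers, Lum was at 0 in all 4 libraries, Postn and Dcn were at 0 in both NTC libraries, and the 8 summed to 24.2 and 22.7 against 28.2 and 22.0 CPM. In bulk samples, fewer cells of a type and less RNA per cell cannot be told apart, which holds for every gene below.

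**Figure D1:**
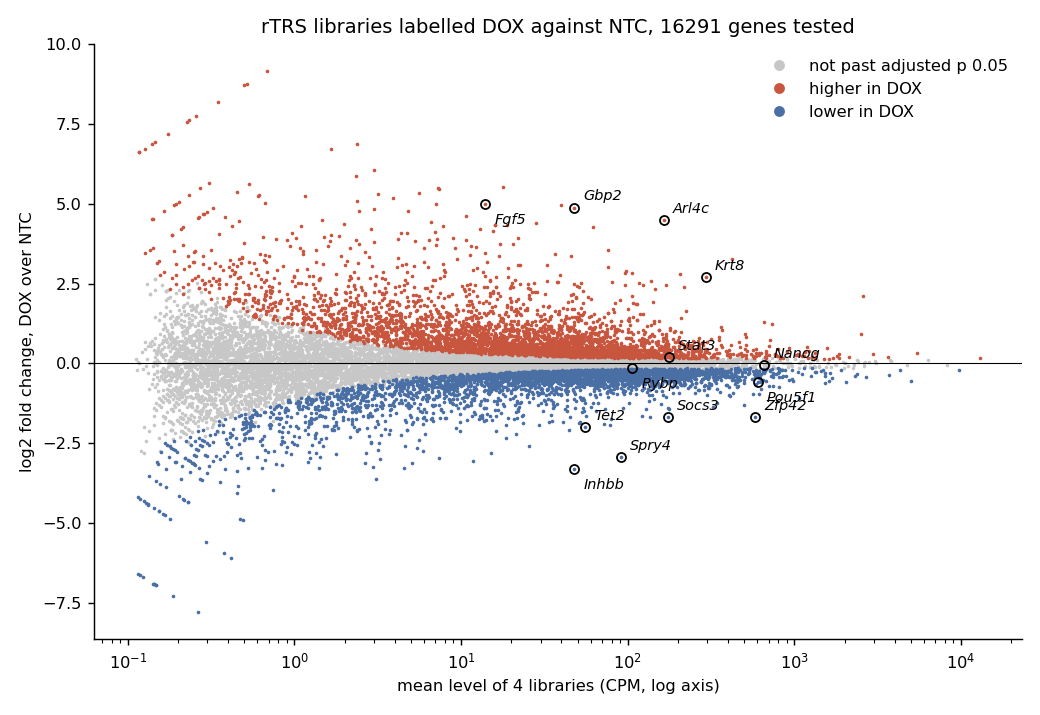
Log2 fold change of each tested gene (libraries labelled DOX over NTC) against its mean level over 4 libraries in CPM on a log axis, with red for genes higher and blue for genes lower at an adjusted p under 0.05. Rybp and Stat3 lie close to 0, while Fgf5, Gbp2 and Arl4c lie above 4 and Inhbb lies at -3.30.

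Genes around LIF and STAT3 were compared by their place in the pathway, with 17 of 20 listed ligands, receptors and kinases tested. Of these, 7 were higher (41.2%) and 2 lower (11.8%), beside 23.0% and 20.4% of all genes, and the counts were 6 and 1 without DOX library 2. The median log2 fold change was 0.31, beside 0.00 over all genes, and each list below is set beside those same shares and that median. Lists and members were chosen with earlier results of these data known, so their shares describe them and are no independent test. Lifr, the LIF-binding receptor chain, was at 73.75 and 83.2 CPM in NTC and at 28.2 and 31.1 CPM in the libraries labelled DOX. The groups were well separated, and Lifr fell by 1.40 on the log2 scale (SE 0.09, adjusted p = 6.7e-08). Il6st, which encodes the shared chain gp130, had 68.8 and 76.3 against 76.3 and 81.3 CPM, and its log2 fold change of 0.12 did not pass the test (adjusted p = 0.23). Among the ligands, Lif rose by 1.24 (adjusted p = 0.00011) from 3.52 and 3.80 to 9.74 and 7.52 CPM. Il11 rose by 3.05 (adjusted p = 0.0024), from 5 counts in either NTC library to 45 and 38 counts. Jak2, a kinase that signals from gp130, rose by 1.10 (adjusted p = 4.6e-05). The receptor genes Cntfr and Il11ra1 rose by 0.95 and 0.64, and the call for Il11ra1 was lost with DESeq2 (adjusted p = 0.064), without NTC library 1 (0.18) and without DOX library 2 (0.054). The receptor that LIF binds was thus lower while several other genes of the pathway were higher.

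Among the 6 other STAT genes, 3 were higher (50%) and 1 lower (16.7%, median 0.23). Stat5a rose by 1.15, Stat2 by 0.45 and Stat5b by 0.44, and Stat4 fell by 1.08. Of 15 inhibitors of JAK and STAT signalling, 4 were higher (26.7%) and 5 lower (33.3%), beside 23.0% and 20.4% of all genes. Their median of 0.08 became -0.04 without NTC library 2 and 0.18 without NTC library 1. Socs3 (chr11:117827393-117831361, minus strand), the feedback gene that STAT3 activates, gave the largest of these changes. It was at 283.5 and 249.9 CPM in NTC and at 84.5 and 81.1 CPM in the libraries labelled DOX, and fell by 1.69 (SE 0.07, adjusted p = 2.6e-09). Both libraries labelled DOX lay far below both NTC libraries. Socs1, an inhibitor that interferons also induce, rose by 1.22, from 3.13 and 2.42 to 7.43 and 5.52 CPM (adjusted p = 0.0005). Socs2 fell by 0.55.

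Of 34 tested genes in a list of STAT3 targets, 8 were higher (23.5%, near the 23.0% of all genes) and 14 lower (41.2%, beside 20.4%), with a median of -0.22. Without DOX library 2 the counts were 10 and 12. Those that fell included Socs3, Klf4 and Gbx2, which fell by 1.46 and encodes a homeobox protein that STAT3 induces in ESCs. Pramel6 held 12 and 18 counts in NTC and 0 in both libraries labelled DOX (adjusted p = 0.0046). Those that rose included Pim2, a serine/threonine kinase (2.56, adjusted p = 3.04e-10), Fos, a subunit of AP-1 (2.505, adjusted p = 3.5e-09), and Zfp36, which destabilises mRNAs (1.27, adjusted p = 1.01e-06). Pim2 went from 25.05 and 21.9 to 143.9 and 132.6 CPM. Pim2 stands in the list of formative and primed genes too, and Klf4 among the naive factors.

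**Figure D2:**
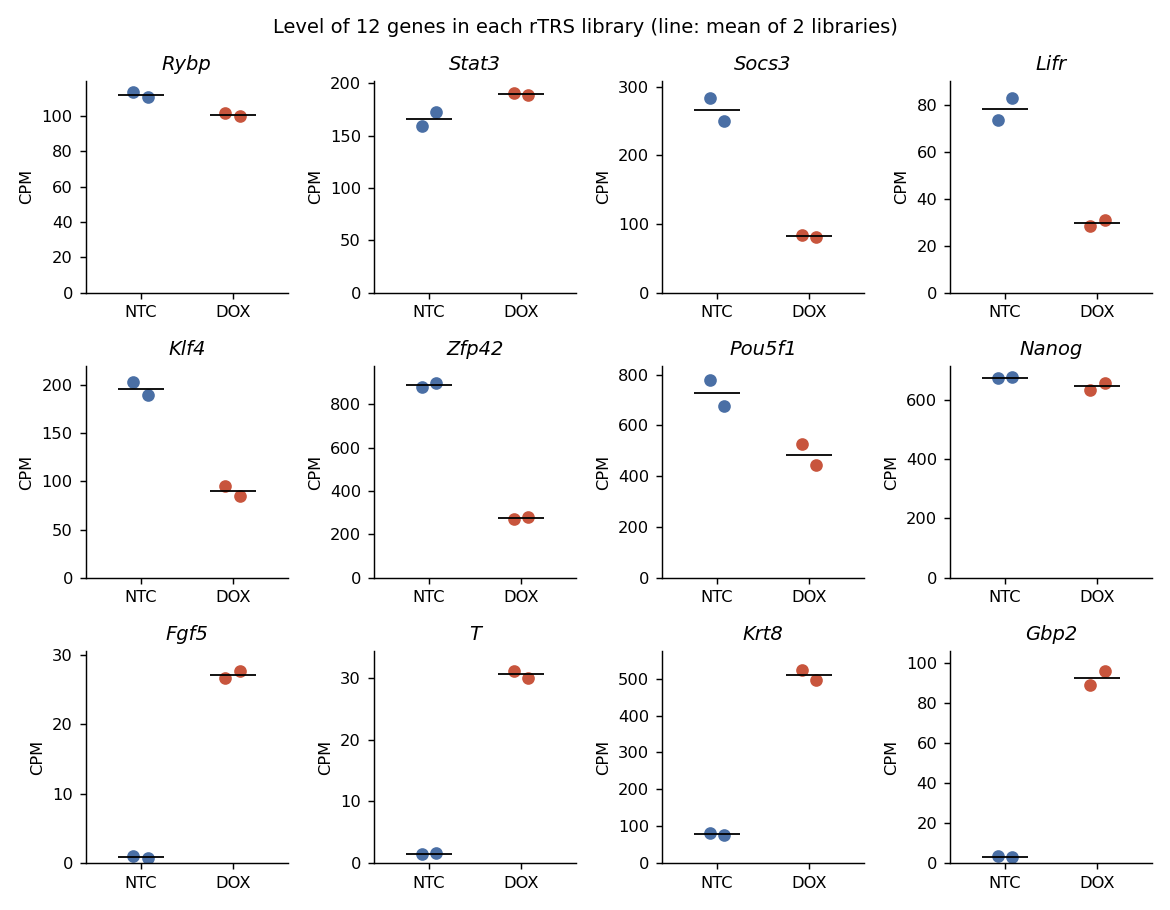
Level of 12 genes in CPM (linear axis from 0), with a point for each library and a line for the mean of the 2 libraries. Rybp, Stat3 and Nanog differ little between NTC and the libraries labelled DOX, Socs3, Lifr, Klf4, Zfp42 and Pou5f1 are lower in both of them, and Fgf5, T, Krt8 and Gbp2 are higher in both.

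Naive pluripotency genes were lower as a group in the libraries labelled DOX. Of the 16 factors tested, 14 were lower (87.5%, beside 20.4% of all genes) and 0 higher (beside 23.0%), with a median of -0.90, and without DOX library 2 the counts were 14 lower and 1 higher. Nr0b1, a nuclear receptor of the ESC network, fell by 2.08 (SE 0.085, adjusted p = 1.61e-09), from 74.0 and 70.2 to 16.6 and 17.6 CPM. Zfp42, which encodes the naive marker REX1, was at 881 and 897.5 CPM in NTC and at 271 and 282 CPM in the libraries labelled DOX. It fell by 1.68 (SE 0.055, adjusted p = 2.65e-10), with no overlap. Tcl1, an AKT coactivator, fell by 1.62, Fgf4, the growth factor that ESCs secrete, by 1.28, and the transcription factors Klf4 and Esrrb by 1.12 and 0.97. Klf4 had 203 and 189 CPM in NTC against 95.65 and 84.6 CPM. The 2 members that did not pass were Dppa5a (-0.16, adjusted p = 0.0685) and Dppa3 (0.50).

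The core factors moved less. Of 4 tested, 3 were lower (75.0%, beside 20.4% of all genes) and 0 higher (beside 23.0%), with a median of -0.41. Pou5f1, which encodes OCT4, was at 777 and 676 CPM in NTC and at 526 and 442 CPM in the libraries labelled DOX, and fell by 0.58 (SE 0.08, adjusted p = 9.7e-05). Sox2 fell by 0.56 (adjusted p = 7.2e-05) from 577 and 509 to 394 and 344 CPM. Nanog stood at 673 and 678 against 633.5 and 658 CPM and did not pass the test (log2 fold change -0.06, SE 0.05, adjusted p = 0.355). The order among the core genes was thus Pou5f1 and Sox2 falling by similar amounts, Sall4 by 0.26, and Nanog with the difference nearest to 0.

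Genes of the formative and primed states were mostly higher. Of 19 tested, 13 were higher (68.4%, beside 23.0% of all genes) and 4 lower (21.1%, near the 20.4% of all genes), with a median of 1.12. Of the 4 lower, 1 fell by more than 1 on the log2 scale, beside 4.28% of all genes. The lowest value of the list was -1.81. Fgf5, the growth factor that marks the primed epiblast, had 50 and 40 counts in NTC and 1381 and 1410 counts in the libraries labelled DOX, a rise of 4.98 (SE 0.16, adjusted p = 2.3e-10). Wnt8a, a Wnt ligand, rose by 5.47, and its NTC libraries differed from each other, with 2 and 32 counts against 734 and 753. Dkk1, a secreted Wnt inhibitor, rose by 4.84, Cldn6, a tight-junction claudin, by 2.10, and the zinc finger gene Zic2 by 1.86. Otx2, a homeobox gene that drives the formative state, did not follow: it stood at 102.6 and 99.9 against 93.9 and 94.6 CPM (log2 fold change -0.10, adjusted p = 0.225).

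Of the enzymes that write or remove DNA methylation, 2 of 9 rose (22.2%, near the 23.0% of all genes) and 5 fell (55.6%, beside 20.4%, median -0.16), and without DOX library 2 the counts were 1 and 4. Dnmt3b, a de novo methyltransferase raised in primed cells, rose by 1.12 (adjusted p = 3.7e-08) from 110.2 and 116 to 237 and 255 CPM. The 5-methylcytosine oxidases Tet2 and Tet1 fell by 1.99 and 1.24. Tet2 had 82.85 and 94.75 CPM in NTC against 21.8 and 23.0 CPM. Dnmt3a and its cofactor Dnmt3l fell by 0.26 and 0.36.

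Genes of the primitive streak, where the epiblast gives rise to mesoderm and endoderm, included several of the strongest rises. Of 18 tested, 9 were higher (50%) and 3 lower (16.7%), beside 23.0% and 20.4% of all genes, with a median of 1.07. Of the 3 lower, 2 fell by more than 1 on the log2 scale, beside 4.28% of all genes. The lowest value of the list was -1.52. Evx1, a homeobox gene, had 7 and 2 counts in NTC and 304 and 302 in the libraries labelled DOX. T (chr17:8627288-8635361, plus strand), which encodes brachyury, was at 1.45 and 1.56 CPM in NTC and at 31.2 and 29.9 CPM in the libraries labelled DOX. It rose by 4.34 (SE 0.14, adjusted p = 1.65e-10), a fold of 20.3. Fgf8 and Wnt3, secreted signals of the streak, rose by 5.34 and 4.20. Hand1 rose by 1.87, and the call for Gsc (1.54, adjusted p = 0.039) was lost with DESeq2 (0.076) and when any 1 of the 4 libraries was left out (0.067 to 0.2).

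Feedback genes of the Wnt pathway rose in 10 of 14 cases (71.4%, beside 23.0% of all genes) and fell in 0 (beside 20.4%), with a median of 0.86. Axin2, a scaffold of the beta-catenin destruction complex, rose by 2.03 (adjusted p = 9.7e-09) from 8.86 and 8.38 to 35.1 and 35.4 CPM. Sp5, a direct target of beta-catenin, rose by 3.37, and the Wnt-responsive genes Rnf43, Nkd1 and Tcf7 rose by 1.52, 1.09 and 0.93. Among 16 Nodal and BMP feedback genes, 8 were higher (50%) and 5 lower (31.2%), beside 23.0% and 20.4% of all genes (median 0.27). Lefty1, a Nodal antagonist, rose by 1.53, while Tdgf1, the Nodal co-receptor, and Id1, a BMP target, fell by 1.09 and 1.04. Of 15 FGF and ERK feedback genes, 6 were higher (40.0%) and 7 lower (46.7%), beside the same shares of all genes, or 4 and 7 without DOX library 2. Their median of -0.24 became 0.00 without NTC library 1, -0.40 without NTC library 2 and -0.07 without DOX library 2. Spry4, an inhibitor of receptor tyrosine kinase signalling, fell by 2.94 (SE 0.08, adjusted p = 4.3e-11), from 154 and 169 to 20.6 and 21.5 CPM. Etv4 and Etv1, ETS factors downstream of FGF, fell by 1.41 and 1.24, whereas Dusp4, an ERK phosphatase, and Egr1, an immediate early gene, rose by 1.69 and 1.56.

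The trophectoderm list had the highest median, 1.75, with 13 of 16 tested genes higher (81.2%, beside 23.0% of all genes) and 0 lower (beside 20.4%), and the same counts without DOX library 2. Its members with the largest changes were transcription factors of low level and keratins of simple epithelia. Cdx2 rose by 3.83 (adjusted p = 1.4e-08) from 37 and 36 to 501 and 518 counts, and Gata3 by 4.07 from 26 and 25 to 507 and 340 counts. Krt8 (chr15:101827142-101834773, minus strand) stood at 81.65 and 74.55 CPM in NTC and at 524 and 497 CPM in the libraries labelled DOX. It rose by 2.71 (SE 0.07, adjusted p = 3.4e-11). Its partner Krt18 rose by 2.80, Krt7 by 2.49 and Krt19 by 2.45. None of these keratins overlapped between the groups, and nor did 71.3% of all genes tested.

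Neural genes were mostly lower or too low to test, with 9 of 22 listed genes tested, 2 higher (22.2%, near the 23.0% of all genes) and 5 lower (55.6%, beside 20.4%, median -1.03). Tubb3, a neuronal tubulin, fell by 1.92 (adjusted p = 2.45e-09) and Neurod1 by 1.91. Nes and Sox11, expressed in neural progenitors, rose by 1.55 and 1.51. Of 19 primitive endoderm genes, 9 were higher (47.4%) and 3 lower (15.8%), beside 23.0% and 20.4% of all genes (median 0.27). The rises were Cited1 (2.75), Dab2 (1.94), Fst (1.77) and others, while the transcription factors Sox7 and Hnf4a fell by 4.86, from 45 and 51 to 3 and 0 counts, and by 3.08, from 95 and 131 to 15 and 11 counts. Gata6 and Gata4, which define this lineage, stayed at 0.511 to 0.998 CPM in the 4 libraries and did not pass the test (adjusted p = 0.44 and 0.98). The list's rises therefore did not include its defining factors.

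Guanylate-binding proteins and other interferon-stimulated genes formed a further group. Of 24 tested, 17 were higher (70.8%, beside 23.0% of all genes) and 1 lower (4.17%, beside 20.4%), with a median of 1.34, and without DOX library 2 the counts were 15 higher and 0 lower. Gbp2, a GTPase of cell-autonomous immunity, went from 3.27 and 3.02 CPM to 88.8 and 96.0 CPM. It rose by 4.88 (SE 0.10, adjusted p = 8.1e-12), a fold of 29.4. Gbp3 rose by 4.41, and its neighbours Gbp1 and Gbp7, which are not in the list, by 4.95 and 4.98. Oasl2, an antiviral protein of the OAS family, rose by 5.17 from 18 and 4 counts to 378 and 408. Psmb8, an immunoproteasome subunit, rose by 4.78 from 19 and 16 counts to 484 and 467. Usp18 and Mx2 rested on few counts, with 1 and 1 against 20 and 32 for Usp18 and 0 and 1 against 13 and 20 for Mx2, whose call was lost without NTC library 1 (adjusted p = 0.08). Both passed the filter on low counts through the libraries labelled DOX alone, so they could only be called higher. The shares of the list include them, and those of all genes include such genes too. The Gbp genes are close paralogues, so the division of reads among them is uncertain.

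The 4 Gbp genes lie side by side between Gbp7 (from 142193302) and the end of Gbp2 (142300972) on chromosome 3. Their upstream sequences are shown because they move together, with those of Socs1 and Usp18 for comparison. Each is the 200 bases before the annotated start in NCBIM37 (mm9), 5′ to 3′ on the gene's strand. Capitals mark the core of an interferon response element (GAAA, any 2 bases, GAAA) and the core of a STAT site (TTCNNNGAA), both searched on both strands. The positions are chr3:142193102-142193301 for Gbp7, chr3:142222816-142223015 for Gbp3, chr3:142257611-142257810 for Gbp1, chr3:142283366-142283565 for Gbp2, chr16:10785630-10785829 for Socs1 and chr6:121195724-121195923 for Usp18.
Gbp7: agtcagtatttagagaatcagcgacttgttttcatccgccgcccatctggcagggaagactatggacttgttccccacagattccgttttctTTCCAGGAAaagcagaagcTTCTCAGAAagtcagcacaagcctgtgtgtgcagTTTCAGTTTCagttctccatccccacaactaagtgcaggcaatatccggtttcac
Gbp3: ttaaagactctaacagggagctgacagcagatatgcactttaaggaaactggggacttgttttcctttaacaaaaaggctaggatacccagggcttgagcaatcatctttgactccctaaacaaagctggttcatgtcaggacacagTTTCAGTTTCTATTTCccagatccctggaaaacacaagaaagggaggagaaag
Gbp1: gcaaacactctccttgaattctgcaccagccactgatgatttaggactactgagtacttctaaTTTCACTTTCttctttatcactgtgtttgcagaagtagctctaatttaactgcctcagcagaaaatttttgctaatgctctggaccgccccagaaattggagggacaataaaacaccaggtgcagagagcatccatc
Gbp2: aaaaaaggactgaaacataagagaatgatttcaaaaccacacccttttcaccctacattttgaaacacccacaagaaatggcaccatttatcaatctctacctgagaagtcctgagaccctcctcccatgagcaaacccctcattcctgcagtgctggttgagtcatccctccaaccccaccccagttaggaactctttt
Socs1: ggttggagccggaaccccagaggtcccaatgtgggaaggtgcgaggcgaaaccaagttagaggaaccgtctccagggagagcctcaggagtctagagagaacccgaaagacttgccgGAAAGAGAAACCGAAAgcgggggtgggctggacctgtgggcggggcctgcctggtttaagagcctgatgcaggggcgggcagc
Usp18: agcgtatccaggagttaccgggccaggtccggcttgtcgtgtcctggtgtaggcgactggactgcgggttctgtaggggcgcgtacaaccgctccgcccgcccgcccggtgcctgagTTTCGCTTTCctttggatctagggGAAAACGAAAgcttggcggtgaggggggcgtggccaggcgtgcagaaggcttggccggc

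Gbp7 held 2 STAT cores and 1 interferon response core, Gbp3, Socs1 and Usp18 held 2 interferon response cores each, Gbp1 held 1 and Gbp2 held 0 of either. In Gbp3 and Socs1 the matches overlap. Over all 16264 tested genes with such a window, 2.08% held the interferon response core and 4.67% the STAT core, and among the 24 interferon-stimulated genes 8 (33.3%) and 4 (16.7%) did. Among genes higher by a log2 fold change above 1, 3.82% held the interferon response core and 4.06% the STAT core, and among genes lower by as much 3.01% and 5.02% did. A match describes letters in this window and is no measure of binding.

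Genes of the Polycomb complexes were read against the shares of all genes, 23.0% higher and 20.4% lower. Of 31 tested subunits of non-canonical PRC1, 10 were higher (32.3%) and 11 lower (35.5%), with a median of -0.08 (-0.04 without NTC library 2) and no member beyond a log2 fold change of 1. Yaf2, the paralogue of Rybp, went from 16.8 and 18.7 to 30.7 and 34.5 CPM, a rise of 0.88 (SE 0.10, adjusted p = 2.1e-05), the highest of the list. Per kilobase of gene length, Rybp was at 25.1 and Yaf2 at 9.49 CPM in NTC. Rnf2, which encodes RING1B, was at 192 and 195 against 180 and 185 CPM and did not pass the test (log2 fold change -0.08, adjusted p = 0.281). Pcgf5 and the CpG-island-binding subunit gene Kdm2b rose by 0.60 and 0.42, and Hdac2 and L3mbtl2 fell by 0.47 and 0.46. In canonical PRC1, 2 of 11 were higher, among them Phc2 by 0.96, and 2 lower (18.2% each, under the shares of all genes). Its median of -0.05 became 0.02 without NTC library 2, 0.11 without DOX library 1 and -0.18 without DOX library 2. In PRC2, the complex that methylates H3K27, 3 of 12 were higher (25.0%) and 7 lower (58.3%, median -0.37). Jarid2, an accessory subunit, fell by 1.03 (adjusted p = 2.5e-08) from 544 and 567 to 266 and 278 CPM, Eed by 0.71 and Ezh2 by 0.35, while Suz12 had a log2 fold change of -0.17 (adjusted p = 0.062, and 0.0078 without DOX library 2). Of 18 COMPASS and Trithorax subunits, 1 was higher (5.56%) and 7 lower (38.9%, median -0.15). Wdr5, a subunit shared with PRC1 variants, was at 276 and 274 CPM in NTC and at 206 and 216 CPM in the libraries labelled DOX, and fell by 0.38 (SE 0.06, adjusted p = 0.000201).

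Of 71 listed developmental transcription factors that Polycomb is known to repress in ESCs, 35 passed the filter on low counts. Of these, 9 were higher (25.7%) and 7 lower (20.0%), near the shares of all genes (23.0% and 20.4%). Their median of -0.02 had no steady sign, at 0.06 without NTC library 1, 0.30 without NTC library 2, -0.12 without DOX library 1 and 0.39 without DOX library 2. Each of these calls was also beyond a log2 fold change of 1, as were 7.70% and 4.28% of all genes, and the summed level of the list was 37.2 and 32.9 CPM in NTC and 96.8 and 93.5 CPM in the libraries labelled DOX. Evx1, Six2, Msx1 and Gata3 rose by 4.07 to 6.06, and Dlx2 was listed with 14 and 19 counts in NTC against 4 and 0 (log2 fold change -2.94, adjusted p = 0.038), a call lost with DESeq2 (adjusted p = 0.098), with no filter on low counts (0.066) and without NTC library 1 (0.096), NTC library 2 (0.18) or DOX library 2 (0.28). Of the 40 Hox genes, 13 were tested. There were 2 higher (15.4%) and 1 lower (7.69%), under the 23.0% and 20.4% of all genes, or 1 higher and 2 lower without DOX library 2. Their median of -0.13 became 0.35 without NTC library 2 and -0.50 without NTC library 1. Hoxb1 rose by 1.95, Hoxc13 fell by 0.70, and Hoxb1 stood at 6 and 14 against 40 and 36 counts. The Hoxb1 call was lost without NTC library 1 (adjusted p = 0.17), DOX library 1 (0.11) or DOX library 2 (0.065).

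Genes of the integrated stress response were lower in 19 of 26 cases (73.1%, beside 20.4% of all genes) and higher in 1 (3.85%, beside 23.0%), with a median of -0.68. Chac1, a glutathione-degrading enzyme, fell by 1.76 (adjusted p = 8.4e-07) and Trib3, a pseudokinase, by 1.33, both induced by ATF4 in stressed cells. Of 31 germ cell and meiosis genes, 17 were lower (54.8%) and 4 higher (12.9%), beside 20.4% and 23.0% of all genes, with a median of -0.46. Stra8, a meiotic initiator, and Hormad1, a chromosome axis protein, fell by 1.25 and 1.30. Of 14 tested genes of the 2-cell-like state, 8 were lower (57.1%, beside 20.4% of all genes) and 0 higher (beside 23.0%), with a median of -0.78. Zscan4d fell by 1.46 and Zscan4c by 0.76, at 7.32 and 7.91 CPM in NTC against 4.60 and 4.40 CPM, and reads shared among Zscan4 copies make the split between them uncertain. Targets of p53 gave 7 higher and 5 lower of 22 (31.8% and 22.7%, median 0.06, or 0.04 to 0.10 with any 1 library left out), with Cdkn1a, a CDK inhibitor, up by 0.48. Cyclins and CDK inhibitors gave 3 higher and 3 lower of 14 (21.4% each, median 0.01, or -0.03 to 0.07 with any 1 library left out). The cyclin shares were close to those of all genes, 23.0% and 20.4%. Of 13 mitochondrially encoded mRNAs, 5 were higher (38.5%) and 2 lower (15.4%), beside 23.0% and 20.4% of all genes, or 3 and 3 without DOX library 2. Their median of 0.12 ranged from 0.06 without DOX library 2 to 0.19 without DOX library 1.

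Of 20 feeder fibroblast genes, 13 were tested, with 5 higher (38.5%) and 3 lower (23.1%), beside 23.0% and 20.4% of all genes. Their median of 0.47 became 0.28 without NTC library 2 or without DOX library 1. Tagln and Acta2, actin-binding and actin genes of contractile cells, rose by 4.27 and 2.95 and Col5a1 by 1.71. Col1a1 had 7.67 and 6.515 CPM in NTC against 15 and 11.7 CPM and rose by 0.91, whereas Thy1 fell by 0.72. The summed level of the 20 genes was 1572 and 1664 CPM in NTC and 1657 and 1658 CPM in the libraries labelled DOX. The part of other cell types in the changes above was not tested.

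The remaining list counts that moved when DOX library 2 was left out did so by 1 or 2 genes. Primitive endoderm genes then gave 7 higher and 3 lower, primitive streak and mesoderm genes 8 and 2, Nodal and BMP feedback genes 7 and 5, neural genes 2 and 4, and JAK and STAT inhibitors 3 and 5. The subunits of PRC2 gave 3 higher and 8 lower, canonical PRC1 2 and 1, and the developmental transcription factors 9 and 6. Targets of p53 gave 8 higher and 5 lower, cyclins and CDK inhibitors 3 and 2, feeder fibroblast genes 5 and 2, germ cell and meiosis genes 4 and 16, stress response genes 1 and 18, and 2-cell-like genes 0 and 7. The counts of the STAT family, the core factors, formative and primed genes, Wnt feedback genes, non-canonical PRC1 and COMPASS stayed as given.

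**Figure D3:**
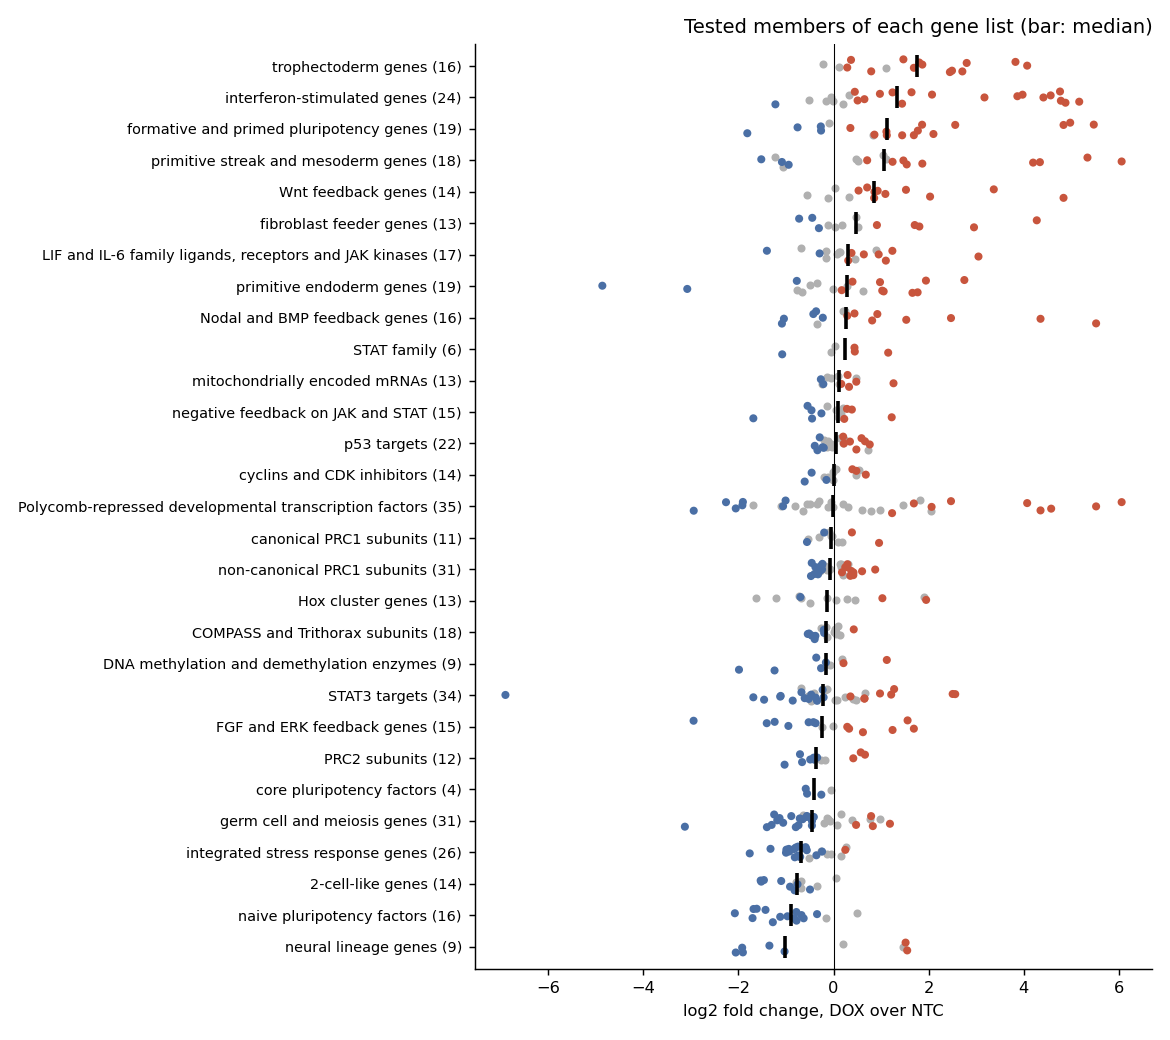
Log2 fold change (libraries labelled DOX over NTC) of each tested member of the gene lists, ordered by their median (black bar), with the number tested in brackets and red or blue for members past an adjusted p of 0.05. Trophectoderm and interferon-stimulated genes lie to the right with medians of 1.75 and 1.34, and naive factors to the left with a median of -0.90.

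Among genes with a mean of at least 5 CPM, the 12 largest rises were at least 4.41 on the log2 scale. They included Thsd7a (5.495), Wnt8a, Fgf8, Fgf5, Gbp7, Gbp1, Gbp2, Csf1, Arl4c, Gbp3 and Mmp9. Arl4c (chr1:90569700-90598796, minus strand), a small GTPase that responds to Wnt and growth factor signals, had the highest level of these. It was at 13.95 and 14.3 CPM in NTC and at 316 and 315 CPM in the libraries labelled DOX (4.48, SE 0.07, adjusted p = 9.61e-13). Csf1, a macrophage growth factor, went from 43 and 45 to 1089 and 1035 counts. Mmp9, a matrix metalloproteinase, went from 2.465 and 2.59 to 56.95 and 50.7 CPM.

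The 12 largest falls ran from -3.30 to -2.22, smaller in size than the rises. They were Inhbb, Myo1f, Gm13230, Gpr133, Spry4, 2410004A20Rik, Tgm3, Myo1g, Enox1, 1700029P11Rik, Mras and Dusp27. Inhbb (chr1:121312042-121318825, minus strand), a subunit of activin and inhibin, was at 89.3 and 84.0 CPM in NTC and at 8.90 and 8.72 CPM in the libraries labelled DOX (SE 0.09, adjusted p = 4.3e-11). Mras, a RAS-family GTPase, fell by 2.32. Myo1f, a class I myosin, differed between the libraries labelled DOX, with 87 and 20 counts against 478 and 476 in NTC.

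To ask how the rTRS difference compared with RYBP induced alone, the libraries were fitted with 4 of Tet.RYBP, a J1 ESC line with a DOX-inducible RYBP, 2 given vehicle and 2 given DOX. Its columns name no line and were matched by treatment, the columns headed NTC being taken as the samples whose titles say vehicle. These had 31465829 to 35897734 counts on genes, and the lines were counted in separate tables. In Tet.RYBP, Rybp rose by 1.91 (SE 0.05, adjusted p = 6.98e-24), and 3.62% of 14937 genes were higher and 2.39% lower. The DOX effect differed for 4885 of 16864 genes (29.0%), more positive in rTRS for 2269 (13.5%) and more negative for 2616 (15.5%). For Rybp the difference, rTRS minus Tet.RYBP, was -2.09 (SE 0.08, adjusted p = 2.98e-12), and for Stat3 it was 0.28 (adjusted p = 0.016), with -0.11 in Tet.RYBP.

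Socs3 had a log2 fold change of -0.02 in Tet.RYBP, and the difference was -1.70 (adjusted p = 3.7e-10). Zfp42 and Klf4 differed by -1.79 and -1.07, with 0.08 and -0.08 in Tet.RYBP. Fgf5 differed by 4.63, having a log2 fold change of 0.33 in Tet.RYBP (adjusted p = 0.92). Zscan4c was lower in rTRS and rose in Tet.RYBP by 5.22 (adjusted p = 5.96e-06), a difference of -6.01. Lefty1 and Dnmt3b rose in both, by 1.12 and 0.57 in Tet.RYBP, and the rise was the larger in rTRS, by 0.385 (adjusted p = 0.0464) and 0.525 (adjusted p = 0.000101). The largest rises and falls were chosen for their rTRS change, which the difference contains, so how many of them passed its test is not read as a result. In Tet.RYBP itself, all 12 of the largest falls were tested, with log2 fold changes of both signs, from -0.56 to 0.73. Of the 12, 7 passed in either direction, beside 3.62% of all genes higher and 2.39% lower there. A pass there thus does not mean a fall in both lines. Of the largest rises, Thsd7a, Csf1, Gbp1, Gbp2, Gbp3 and Gbp7 had too few counts there to be tested, as had T. Among those tested, Arl4c rose by 0.555 (adjusted p = 0.0359), and Wnt8a was at 0.305 and 0.406 CPM with vehicle and at 0 in both DOX libraries (adjusted p = 0.0258). The lines and tables differ as well and cannot be told apart from the induced factors, and whether the control treatments differ is not known.

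**Figure D4:**
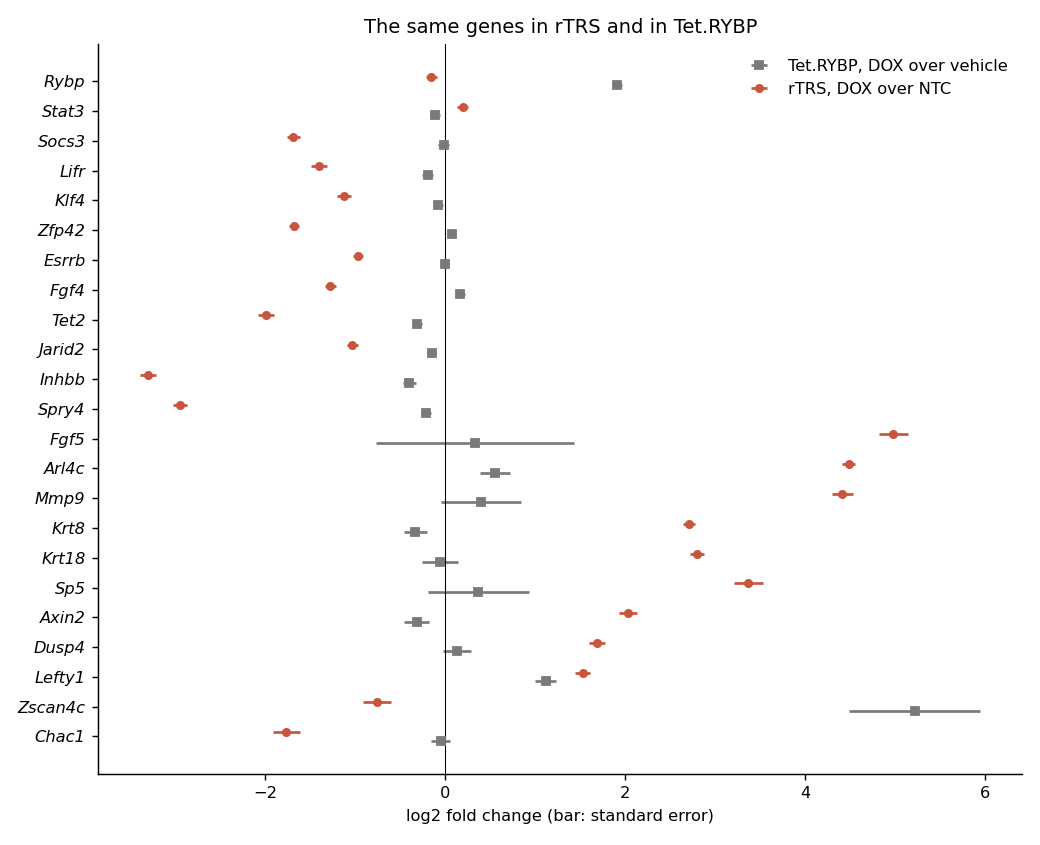
Log2 fold change with its standard error for named genes in rTRS (circles, libraries labelled DOX over NTC) and in Tet.RYBP (squares, DOX over vehicle). Rybp lies at 1.91 in Tet.RYBP and at -0.15 in rTRS, and Socs3 at -0.02 and -1.69.

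STAT3 and RING1B ChIP-seq peaks from Tet.Rybp.Stat3 ESCs with and without DOX, 2 samples per antibody and condition pooled by the authors, were set beside the rTRS classes as a description. These cells are labelled as line R1 with the same genotype as rTRS, and whether they are the same clone is not given. The lists hold 2816 STAT3 peaks without DOX and 30663 with DOX, covering 1.06 and 21.1 Mb, and 17021 and 12864 RING1B peaks. A start site within 2.5 kb of a STAT3 peak of the DOX list was found for 84.7% of the 1255 genes higher by a log2 fold change above 1 (exact 95% interval 82.6 to 86.6). It was found for 51.5% of 697 genes lower by as much and for 69.4% of 9198 genes that did not pass the test. For RING1B with DOX the shares were 75.7%, 38.0% and 48.4%, and without DOX 81.3%, 44.5% and 65.8%. For STAT3 without DOX they were 13.3%, 5.02% and 10.5%. The median level of the classes was 4.71, 1.91 and 7.30 CPM, and the part of level in these shares was not tested. Intervals cover counting error only.

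Among the named genes, the Stat3 promoter held the highest STAT3 enrichment with DOX, 52.9-fold, and 27.3-fold without. The Socs3 promoter had 14.3-fold with DOX and 10.9-fold without. Fgf5, T and Cdx2 had STAT3 peaks of 7.32 to 9.29-fold with DOX and none without, and RING1B peaks of 25.9 to 35.5-fold with DOX and 34.0 to 46.4-fold without. Gbp1, Gbp2 and Gbp3 had no peak of either factor in any list, whereas Gbp7 had a STAT3 peak of 4.17-fold with DOX and RING1B peaks of 3.51-fold with and 4.97-fold without. The summits of STAT3 peaks held the STAT core TTCNNNGAA within 101 bases in 2.12% of the DOX list and 1.81% of the list without DOX, beside 2.18% of windows of that length before the starts of tested genes.

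**Figure D5:**
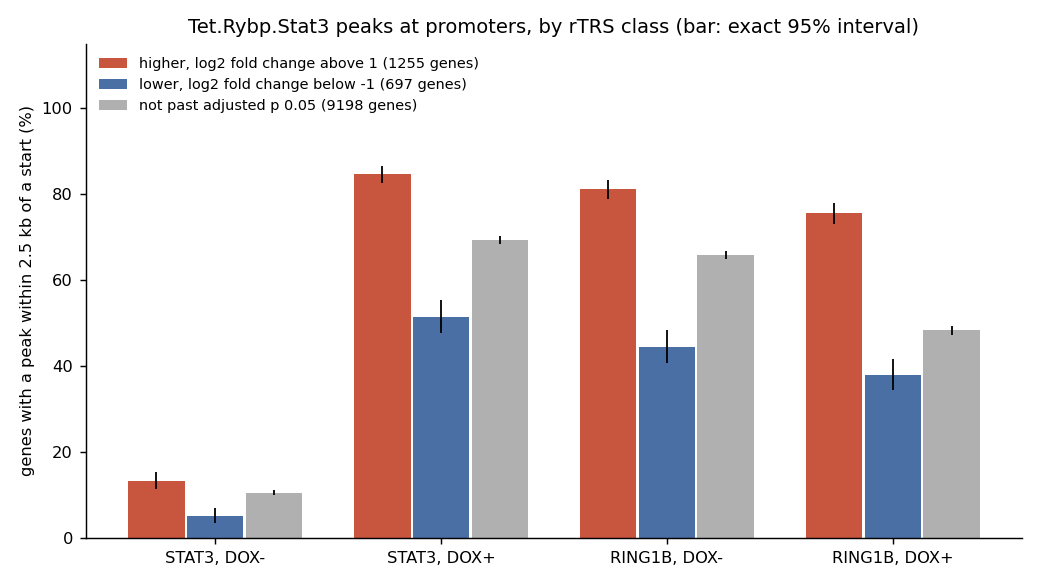
Percent of genes with a STAT3 or RING1B peak within 2.5 kb of a start (bars, with exact 95% intervals) in the Tet.Rybp.Stat3 lists, by rTRS class. In each list the genes higher in the libraries labelled DOX have the largest share, from 13.3% for STAT3 without DOX to 84.7% for STAT3 with DOX.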

How the data were processed

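RNA-seq counts and ChIP-seq peak lists were used as deposited. The authors trimmed reads with Trim Galore, aligned them to mm9 with STAR and counted them per gene with HTSeq, and deposited raw counts for each library, with a gene length in bases (submitters' processing notes). Strandedness is not given in the sources used here, so overlapping genes may share reads. Special categories, such as reads with no unique position, were 24.9 to 26.5% of all counts and were left out, leaving 37620 genes. Per the file headers and format, the deposited peak lists give a fold enrichment (a ratio over background) and a −log10 q, and their names show merged and subsampled replicates. The study's general ChIP-seq methods name Bowtie2 with mm9 and MACS2, and whether they cover these lists is not stated.

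The 4 rTRS libraries were compared with edgeR 4.0.16 (R 4.3.3, limma 3.58.1) using TMM, filterByExpr, the quasi-likelihood test and Benjamini-Hochberg adjustment over all genes tested, at a threshold of 0.05. The difference from Tet.RYBP was fitted over 8 libraries as a contrast of the differences. All adjusted p-values are two-sided and from these fits unless DESeq2 1.42.0 is named. A gene with enough counts in a single group was kept by filterByExpr, so some list members could be called in a single direction only. The shares of the lists and of all genes include such members. CPM used TMM-scaled library sizes of the fit. The code was tested on simulated data. A depth of at least 50312058 counts on genes per rTRS library leaves counting error small except for genes with few counts.

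Named genes were the induced factors, up to 6 members past the threshold per list by size of change plus its defining members, and the 12 largest rises and falls with a mean of at least 5 CPM and no overlap. A member outside this rule was chosen after its values were seen. Some genes that meet the rule are not reported here, and the counts include them. Members and lists were chosen with earlier results of these data known. Peaks were assigned to genes within 2.5 kb of a start in the NCBIM37 annotation, with exact (Clopper-Pearson) 95% intervals. Alternatives were DESeq2, RLE factors, library size only, no filter on low counts, glmTreat, the replicate block, leaving out each library, and other peak windows and thresholds. Lists without DOX library 2 were counted as an alternative chosen after seeing the data.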

Additional observations from a re-analysis of the deposited data

Results flagged for a closer look

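The effect of DOX differed between rTRS and Tet.RYBP by a test of the difference itself (edgeR's quasi-likelihood test, adjusted p under 0.05) for 4885 genes. The difference in log2 fold change, rTRS minus Tet.RYBP, was -2.09 for Rybp, 0.28 for Stat3 and -1.70 for Socs3. Among the largest rises in rTRS it was 12.43 for Wnt8a, 6.60 for Fgf8 and 4.63 for Fgf5. Wnt8a was at 0 in both Tet.RYBP libraries given DOX, so its fitted difference depends on the prior count and is no measure of size. Among the largest falls the difference was -2.92 for Inhbb, -2.84 for Myo1f, -3.33 for Gm13230, -3.06 for Gpr133 and -2.76 for Spry4. Line and count table differ between these experiments and cannot be told apart from the induced factors.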

How the results depend on the processing

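The number of genes past the threshold stayed within 1.5 times of 7070 under DESeq2 (6381), RLE factors (7066), library size only (7102), no filter on low counts (7414) and leaving out any 1 library (6036 to 6587), and a test against a log2 fold change of 1 gave 787. With library size only, 3928 were higher and 3174 lower. The difference from Tet.RYBP gave 4700 genes with DESeq2 and 3842 to 4565 with a library left out. The labels do not say that equal replicate numbers mark a shared batch, and the deviations of equally numbered libraries correlated at 0.201 with 2 pairs. With the replicate number as a block, 8559 genes passed, 1983 with a log2 fold change beyond 1 and 5958 for the difference from Tet.RYBP, and the median of FGF and ERK feedback genes was -0.38. Of 187 named genes, 177 kept direction and side of the threshold under DESeq2, 187 under RLE factors, 186 with library size only, 185 with no filter on low counts and 182 under the block, where Rybp (adjusted p = 0.0058), Nanog (0.042), Rnf2 (0.045), Suz12 (0.00047) and Il6st (0.048) passed as well. Against a log2 fold change of 1, 98 of the 187 no longer passed. Without NTC library 1, NTC library 2, DOX library 1 or DOX library 2, 17, 7, 9 and 13 lost their call, and Suz12 gained one without DOX library 2. Gata4 reversed without NTC library 2 and without DOX library 1, with -0.22 to 0.21 over the libraries left out. The median of p53 targets was 0.05 under DESeq2 and RLE factors and 0.08 with library size only. Leaving out each library gave these medians. They were -0.04 to 0.18 for negative feedback on JAK and STAT, -1.0 to -0.89 for naive pluripotency factors, -0.10 to -0.04 for non-canonical PRC1 subunits, -0.18 to 0.11 for canonical PRC1 subunits, -0.17 to -0.11 for COMPASS and Trithorax subunits and -0.50 to 0.35 for Hox cluster genes. Others were -0.12 to 0.39 for Polycomb-repressed developmental transcription factors, 0.19 to 0.33 for primitive endoderm genes, 0.90 to 1.09 for primitive streak and mesoderm genes, -1.22 to -0.86 for neural lineage genes, -0.49 to -0.38 for germ cell and meiosis genes and -0.86 to -0.71 for 2-cell-like genes. Others were -0.40 to 0.00 for FGF and ERK feedback genes, 0.27 to 0.29 for Nodal and BMP feedback genes, 1.26 to 1.81 for interferon-stimulated genes, -0.74 to -0.58 for integrated stress response genes, 0.04 to 0.10 for p53 targets and -0.03 to 0.07 for cyclins and CDK inhibitors. Others were 0.28 to 0.60 for fibroblast feeder genes. The direction of the Hox list changed with 1 library left out (0.35 without NTC library 2), as did those of the other lists whose range crosses 0. The median of FGF and ERK feedback genes reached 0.00 without NTC library 1 but did not become positive. For STAT3 with DOX, promoter shares of higher, lower and other genes were 82.2%, 47.3% and 67.1% within 1 kb, 88.9%, 63.3% and 77.3% within 10 kb, and 80.7%, 47.1% and 64.7% for peaks with a −log10 q of at least 5. For RING1B with DOX they were 79.6%, 44.6% and 55.6% within 10 kb and 69.2%, 31.1% and 34.3% at that q, and 47.0% of other genes within 1 kb. The higher genes kept the largest share in each setting. The cause of these shifts was not tested. The depth limits genes with few counts, such as Mx2 and Usp18.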
